A study of Mus musculus with 6 samples.

Results

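The transcription factor NRF2, its inhibitor KEAP1 and 8 of their classic target genes were followed in mouse myeloid cells treated with trimethylamine N-oxide (TMAO), a metabolite that the liver makes from a product of gut bacteria. The 10 genes, taken from a named list by symbol, are Nfe2l2 (which encodes NRF2), Keap1, Nqo1, Gclc, Gclm, Gsr, Srxn1, Txnrd1, Txn1 and Prdx1, out of 25751 genes in the count table. Poly(A) RNA of primary wild-type cells was sequenced at 24 h from 3 samples labelled TMAO and 3 labelled Control; the dose, the sex and age of the mice and any agent shared by both groups are not known from the labels. The treated libraries carry the name T-BMDM and the others the name Control, and no label says whether both came from the same culture or whether replicates were separate animals, and each p-value below therefore reflects variation among these 6 libraries alone, which may be technical in origin. All 10 genes passed the filter on low counts, with 706 to 158563 counts per gene and library.

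Under resting conditions KEAP1 binds NRF2 and delivers it to a ubiquitin ligase for destruction. Oxidants and electrophiles that modify cysteines of KEAP1 let NRF2 accumulate, enter the nucleus with a small MAF protein and bind antioxidant response elements in its target genes. Among these are the genes for making and recycling glutathione, for the thioredoxin system that keeps peroxiredoxins reduced, and for quinone reduction, which together limit oxidative damage in macrophages. KEAP1 and NRF2 are controlled to a large part as proteins, which RNA counts do not measure.

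With TMAO, 6 of the 10 transcripts rose, 1 fell and 3 did not pass the test. Sulfiredoxin (Srxn1) rose 3.26-fold, thioredoxin reductase 1 (Txnrd1) 2.06-fold, NRF2 itself 1.99-fold and the catalytic subunit of glutamate-cysteine ligase (Gclc) 1.95-fold. The modifier subunit Gclm and glutathione reductase (Gsr) rose less, 1.52-fold and 1.44-fold, and the quinone reductase Nqo1 fell to 0.733 of the control level. Keap1, thioredoxin (Txn1) and peroxiredoxin 1 (Prdx1) lay at 1.02, 0.956 and 0.947 of the control level without passing the test. Calls are at an adjusted p under 0.05 by edgeR's quasi-likelihood test over 14626 genes, of which 65.7% were called, 33.0% higher and 32.7% lower. The 7 of 10 called here is close to that background, and the 6 higher and 1 lower stand beside a near-even split of all genes. The median log2 fold change was 0.57 over the 10 genes and 0.005 over all genes tested. Tested against a fold of 1.5, which 18.0% of all genes passed upward and 17.5% downward, Srxn1, Txnrd1, Nfe2l2 and Gclc were still called and no other of the 10.

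**Figure D1:**
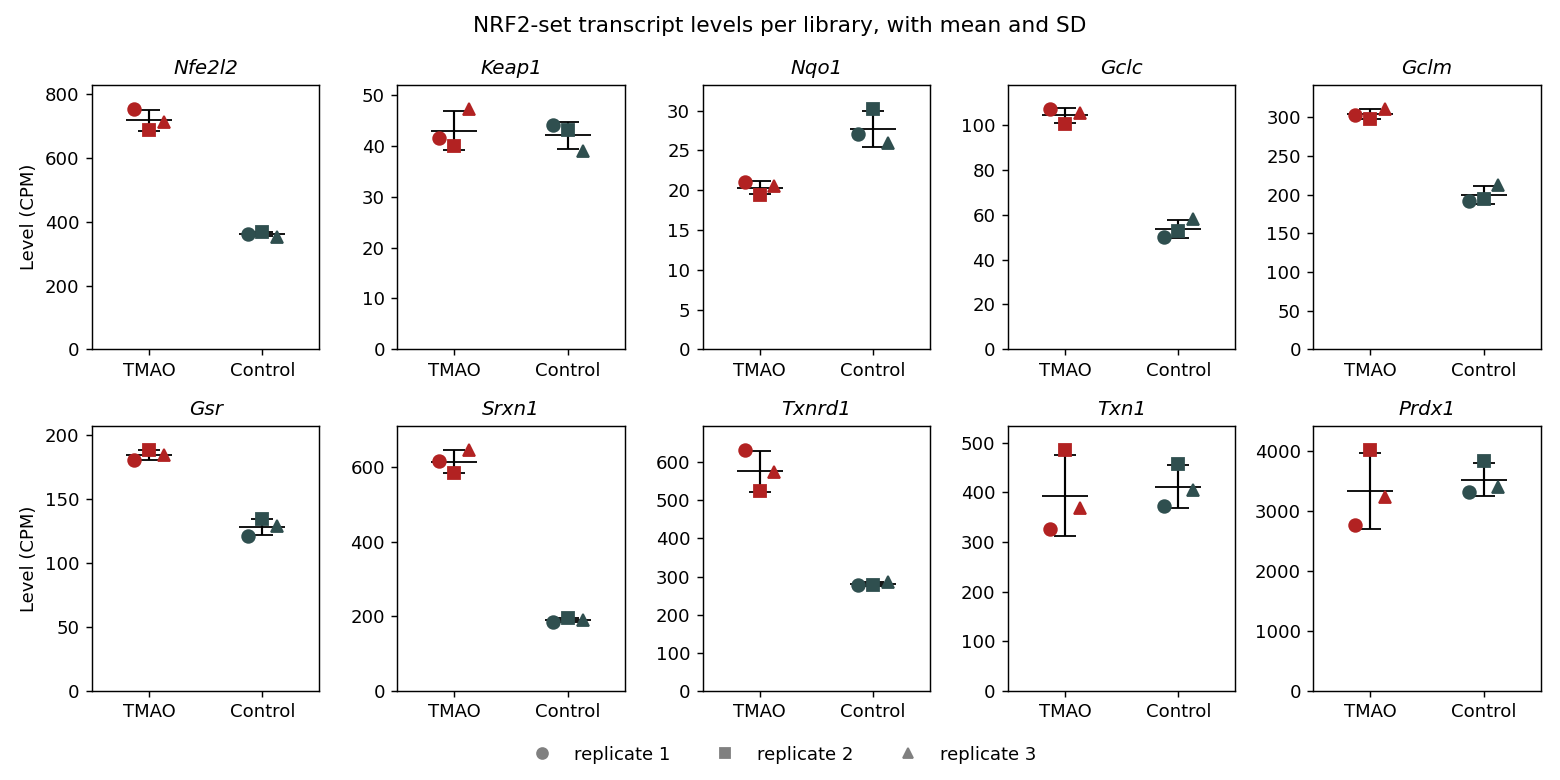
Level of each of the 10 transcripts in CPM, the count scaled to a common library size, with TMAO libraries on the left and control libraries on the right of each panel; points are single libraries, the long bar is the mean and the whiskers are the SD of 3. The groups stand apart in 7 panels and overlap for Keap1, Txn1 and Prdx1.

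The regulators differed from each other. Nfe2l2 (ENSMUSG00000015839) was at 754, 689.5 and 713 CPM in TMAO libraries 1 to 3, against 362, 368 and 354 CPM in control libraries 1 to 3, where CPM is the count scaled to a common library size by the TMM method. Every TMAO library lay above every control library. The log2 fold change was 0.99 (SE 0.08, edgeR adjusted p = 2.7e-06). Keap1 (ENSMUSG00000003308) was at 41.6, 39.9 and 47.2 CPM in the TMAO libraries, against 44.0, 43.1 and 39.0 CPM in the controls. Its groups overlapped, with TMAO replicate 3 the highest of all 6 and control replicate 3 the lowest. The log2 fold change of Keap1 was 0.03 (SE 0.10, edgeR adjusted p = 0.798); it was -0.20 with the trend on GC content removed and -0.03 without control replicate 3 or -0.04 without TMAO replicate 3, and not called in any of these. Gm16754, which overlaps Keap1 on the other strand, had 61 to 66 counts with TMAO and 19 to 26 in controls, against 1452 or more for Keap1.

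Counts of 2 genes within 1 library form a ratio that does not depend on how libraries are scaled. There were 0.0552, 0.0579 and 0.0663 Keap1 counts per Nfe2l2 count with TMAO, against 0.122, 0.117 and 0.110 in the controls. The ratio was lower in all 3 TMAO libraries, at 0.0598 ± 0.00577 with TMAO and 0.116 ± 0.00574 in controls (mean ± SD, n = 3 each; exact two-sided permutation p = 0.1, which is the smallest that 3 against 3 libraries can give). Over the 7 ratios examined, the adjusted p of this and of each other ratio without overlap was 0.117, so no ratio passed 0.05.

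The 3 genes of glutathione supply all rose. Gclc (ENSMUSG00000032350), the catalytic subunit of the enzyme that sets the rate of glutathione synthesis, was at 107, 100.4 and 105 CPM with TMAO, against 50.2, 52.6 and 57.9 CPM in controls. Gclm (ENSMUSG00000028124), the subunit that raises the activity of Gclc, was at 303, 298 and 311 CPM with TMAO, against 192, 195 and 213 CPM in controls. Gsr (ENSMUSG00000031584), which reduces oxidised glutathione with NADPH, was at 180.5, 188 and 184 CPM with TMAO, against 121, 134 and 129 CPM in controls. The groups overlapped in none of the 3 genes; no overlap was seen in 7 of the 10 genes and in 71.0% of all genes tested. The log2 fold changes were 0.96 (SE 0.09) for Gclc, 0.60 (SE 0.08) for Gclm and 0.53 (SE 0.08) for Gsr, with edgeR adjusted p of 6.83e-06, 8.96e-05 and 0.000223.

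Gclc rose more than its partner subunit. There were 2.82, 2.97 and 2.97 Gclm counts per Gclc count in the TMAO libraries and 3.81, 3.71 and 3.68 in the controls. Each TMAO library was below each control library (log2 difference -0.36, exact permutation p = 0.1). With the length trend over all genes removed, the log2 fold changes of Gclm and Gclc were 1.02 and 1.01; the cause of that trend was not tested. The Gclm transcript of 5589 bases is the longest of the 10, and the median log2 fold change of all genes tested was 0.49 in the shortest of 5 equal length classes and -0.53 in the longest. Gsr counts per Gclc count were also lower with TMAO, at 1.68, 1.88 and 1.75 against 2.40, 2.55 and 2.22 in controls (log2 difference -0.43, exact permutation p = 0.1). Gm17494, which overlaps Gclm on the other strand, had 85 to 119 counts with TMAO and 4 to 9 in controls, against 7446 or more for Gclm. Whether the counting used strand is not known.

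**Figure D2:**
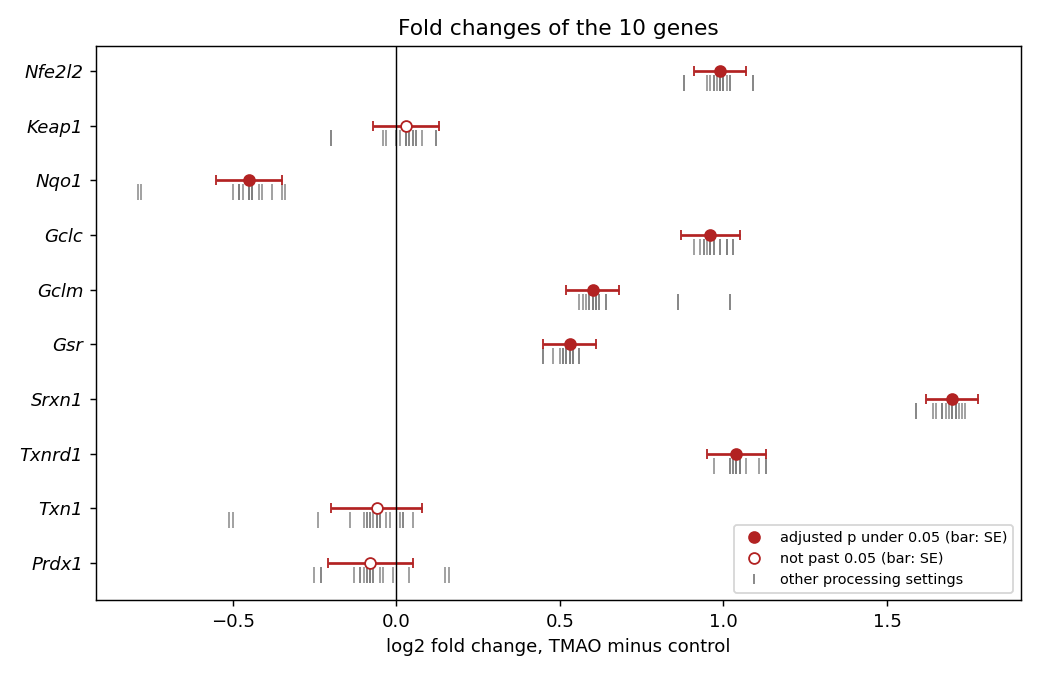
Log2 fold change of each gene, TMAO minus control, with its SE as a bar; filled circles passed an adjusted p of 0.05 and grey ticks show the same gene under the other processing settings. Srxn1 is farthest to the right at 1.70, and the ticks of Gclm at 1.02 and of Nqo1 at -0.78 are from the fits without the length trend.

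The thioredoxin branch was divided: Srxn1 and Txnrd1 rose, and the more abundant Txn1 and Prdx1 did not pass the test. Srxn1 (ENSMUSG00000032802), which repairs overoxidised peroxiredoxins, was at 616, 585 and 646 CPM with TMAO, against 184, 194 and 189 CPM in controls. Txnrd1 (ENSMUSG00000020250), the selenoenzyme that reduces thioredoxin with NADPH, was at 632, 525 and 574 CPM with TMAO, against 278, 277 and 286 CPM in controls. In both genes the lowest TMAO library was replicate 2, and it was still well above the controls. The log2 fold changes were 1.70 (SE 0.08, edgeR adjusted p = 9.16e-08) for Srxn1 and 1.04 (SE 0.09, edgeR adjusted p = 4.46e-06) for Txnrd1. A log2 fold change at least as high as that of Srxn1 was seen in 7.31% of the genes tested. Overlapping genes of Txnrd1 were small beside it: Eid3 had 109 to 123 counts with TMAO and 8 to 28 in controls, against 10802 or more for Txnrd1.

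Txn1 and Prdx1, the substrates of these enzymes, did not follow them. Txn1 (ENSMUSG00000028367), the small dithiol protein that passes electrons to peroxiredoxins, was at 327, 485 and 369 CPM with TMAO, against 373, 458 and 404 CPM in controls. Prdx1 (ENSMUSG00000028691), a peroxidase of hydrogen peroxide, was at 2765, 4015 and 3228 CPM with TMAO, against 3325, 3832 and 3408 CPM in controls. In both genes TMAO replicate 2 was the highest and TMAO replicate 1 the lowest of all 6 libraries, so the groups overlapped. The log2 fold changes were -0.06 (SE 0.14, edgeR adjusted p = 0.703) for Txn1 and -0.08 (SE 0.13, edgeR adjusted p = 0.618) for Prdx1. Txn1, with 1051 bases the shortest transcript of the 10, was called lower once the trend on length was taken out, at -0.50 on the log2 scale (edgeR adjusted p = 0.00042; 2.03e-05 to 1.00 over the alternatives). The direction of both genes turned without TMAO replicate 1, to 0.05 for Txn1 and 0.04 for Prdx1 on the log2 scale. Of the 75-base windows of the Prdx1 transcript, 5.63% also occur in the processed pseudogenes Gm21399 and Gm7204, so part of its reads may have been split. Gm21399 had 1467 to 1628 counts with TMAO and 1617 to 2169 in controls. Gm7204 had 67 to 87 with TMAO and 80 to 110 in controls, against 109592 or more for Prdx1.

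The ratio of Prdx1 to Txn1 hardly varied. It was 8.44, 8.28 and 8.75 with TMAO, against 8.91, 8.37 and 8.43 in controls (log2 difference -0.01, exact permutation p = 0.7). The enzymes moved away from their substrates in every TMAO library: Txnrd1 counts per Txn1 count were 1.93, 1.08 and 1.56 with TMAO, against 0.745, 0.604 and 0.707 in controls. The log2 difference was 1.12 (exact permutation p = 0.1). Srxn1 counts per Prdx1 count were 0.223, 0.146 and 0.200 with TMAO, against 0.0553, 0.0507 and 0.0555 in controls (log2 difference 1.79, exact permutation p = 0.1). The groups did not overlap in either of these ratios.

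**Figure D3:**
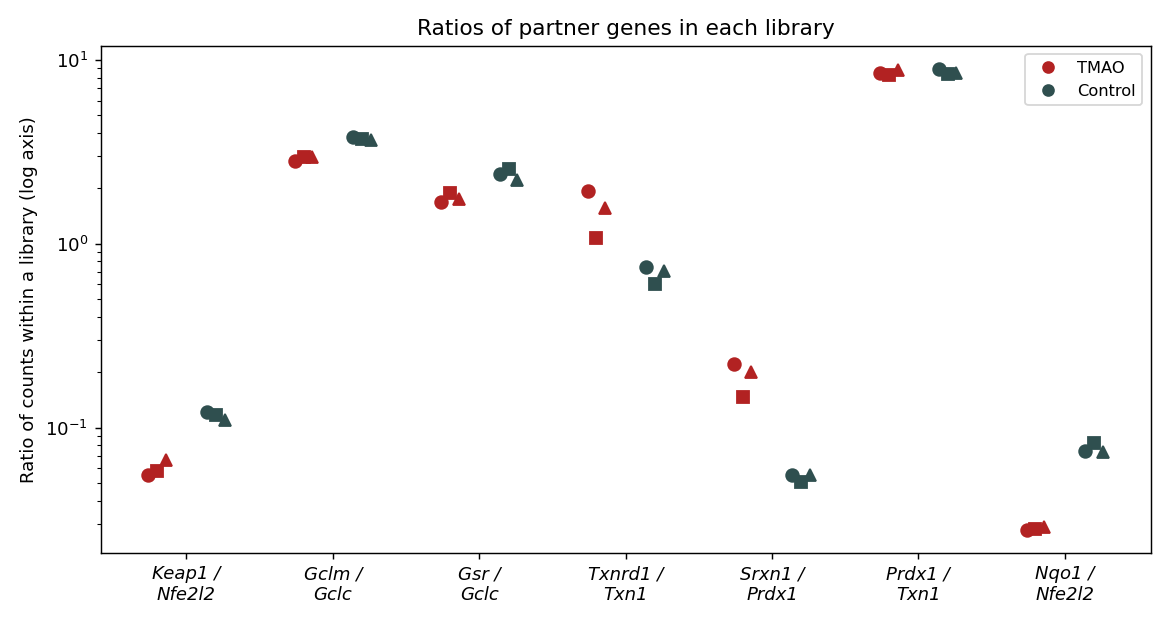
Ratio of the counts of 2 genes within each library on a log axis, with TMAO in red to the left and controls in dark grey to the right. Circles, squares and triangles are replicates 1, 2 and 3. Prdx1 over Txn1 overlaps at 8.28 to 8.91 over all 6 libraries, and the other 6 ratios do not overlap.

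The TMAO libraries differed among themselves more in Txn1 and Prdx1 than in the other 8 genes. Within the TMAO group, log2 CPM spanned 0.57 for Txn1 and 0.54 for Prdx1, against 0.06 to 0.27 for the others. Txn1 and Prdx1 deviated from their group mean by 0.32 and 0.28 in TMAO replicate 2 and by -0.25 and -0.25 in TMAO replicate 1. In TMAO replicate 2, Txnrd1 and Srxn1 were on the other side of their means, at -0.13 and -0.07. The control libraries spanned 0.29 for Txn1 and 0.20 for Prdx1, with replicate 2 again the highest in both. Among the controls Nqo1 at 0.22 and Gclc at 0.21 spanned slightly more than Prdx1. The coefficient of variation with TMAO was 20.7% for Txn1 and 18.9% for Prdx1, and 2.13% for Gsr. The order of the TMAO libraries was not particular to Txn1 and Prdx1. In TMAO replicates 1, 2 and 3, Txndc9 was at 101, 147 and 119 CPM and Gpx4 at 252, 364 and 302 CPM. Abcc1 had the opposite order, at 325, 214 and 277 CPM. These genes were named after their values were seen, and genes of either order were not counted. The largest chi-square per degree of freedom within a group, 65.6, was between TMAO replicates 1 and 2.

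**Figure D4:**
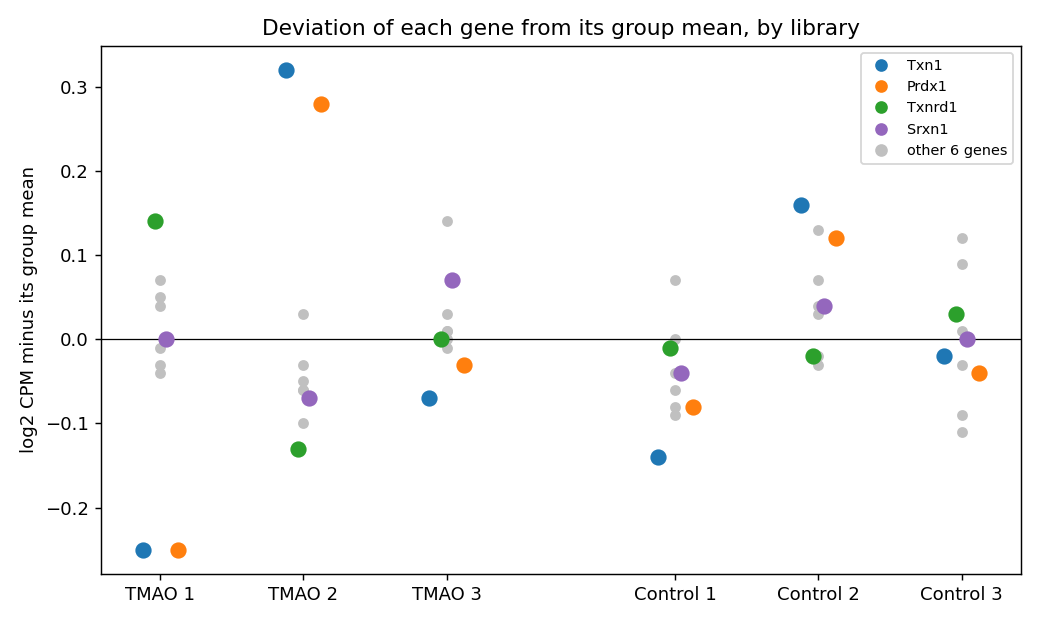
Difference of each gene's log2 CPM from the mean of its group in each library, with TMAO libraries on the left and controls on the right. Txn1 and Prdx1 lie together, at 0.32 and 0.28 in TMAO replicate 2 and at -0.25 in TMAO replicate 1, away from the other 8 genes.

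Nqo1 was the exception in direction. Nqo1 (ENSMUSG00000003849), a quinone reductase often used to read NRF2 activity, was at 21.0, 19.4 and 20.5 CPM with TMAO, against 27.0, 30.2 and 25.9 CPM in controls. All TMAO libraries were below all controls, on counts of 706 to 834 with TMAO and 1048 to 1251 in controls. The log2 fold change was -0.45 (SE 0.10, edgeR adjusted p = 0.00269); taking out the length trend gave -0.78. Nqo1 counts per Nfe2l2 count were 0.0279, 0.0282 and 0.0288 with TMAO, against 0.0745, 0.0821 and 0.0734 in controls (log2 difference -1.44, exact permutation p = 0.1).

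Levels can be compared between genes per length, here as CPM per kilobase of the longest annotated transcript. With TMAO, Prdx1 was highest at 1454 ± 275 CPM per kilobase, followed by Txn1 at 375 ± 77.6, Nfe2l2 at 290.3 ± 13.1, Srxn1 at 219 ± 10.9 and Txnrd1 at 159 ± 14.9 (mean ± SD, n = 3). Gsr at 68.9, Gclm at 54.4, Gclc at 30.5, Nqo1 at 13.1 and Keap1 at 11.9 CPM per kilobase came after them. Only the last neighbours, Nqo1 and Keap1, had overlapping ranges. In controls Prdx1 was again highest at 1535 ± 118 CPM per kilobase, then Txn1 at 392 ± 40.6, Nfe2l2 at 146 ± 2.95, Txnrd1 at 77.3 and Srxn1 at 67.3. The order thus had Srxn1 above Txnrd1 with TMAO and below it in controls, without overlap in either group. This crossing rests on division by the longest annotated transcript, and which transcripts were expressed was not tested. In CPM before that division, the TMAO ranges of Srxn1 (585 to 646) and Txnrd1 (525 to 632) overlapped. Srxn1 was below Txnrd1 in controls there too. Gsr at 47.8, Gclm at 35.8, Nqo1 at 17.8, Gclc at 15.7 and Keap1 at 11.6 CPM per kilobase followed in controls, where Nqo1 and Gclc overlapped. Gclc was above Nqo1 with TMAO, also without overlap.

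The antioxidant response element was searched for in the promoters of the 10 genes as TGACNNNGC on both strands, in RefSeq windows from 250 bases before to 50 bases after each start (GRCm38.p6). Of the 10 genes, 8 matched a window; Gclc and Gsr did not. The letters were present for 5 of the 8, and for 14.0% of the 27025 genes with a window. Matches are shown with 10 bases on either side to let their cores be compared, written along the gene's own strand with the match in capitals; only the first reads forward, the others hold the element on the opposite strand.
Nfe2l2, chr2:75704885-75704913, minus strand: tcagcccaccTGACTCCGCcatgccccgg
Gclm, chr3:122245413-122245441, plus strand: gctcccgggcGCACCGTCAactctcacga
Srxn1, chr2:152105542-152105570, plus strand: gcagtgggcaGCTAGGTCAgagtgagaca
Txnrd1, chr10:82859104-82859132, plus strand: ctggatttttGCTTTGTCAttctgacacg
Prdx1, chr4:116685456-116685484, plus strand: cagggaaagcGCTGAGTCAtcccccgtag
The matches begin 240 bases before the start in Nfe2l2, 134 before in Gclm, 92 before in Txnrd1 and 133 before in Prdx1, and at base 29 after the start in Srxn1. Txnrd1 has 3 annotated starts, and the match belongs to 1 of them. The match of Prdx1, TGACTCAGC, also contains TGACTCA, the letters of an AP-1 site, and the other 4 matches do not. This covers the matches alone. Read on either strand, TGACTCA also lies outside the match in the windows of both Srxn1 and Prdx1, so these letters do not set Prdx1 apart from Srxn1. Of the genes with a match, Nfe2l2, Gclm, Srxn1 and Txnrd1 rose and Prdx1 did not pass the test. Keap1, Nqo1 and Txn1 had no match in this window, and bases farther upstream were not searched. Gclc and Gsr, which rose, had no window to search. Whether a match goes with the change was not tested.

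The upstream bases of Gclm, which rose, and of Prdx1, which did not pass the test, are given in full because both hold a match at nearly the same distance from the start.
Gclm, chr3:122245307-122245556, plus strand: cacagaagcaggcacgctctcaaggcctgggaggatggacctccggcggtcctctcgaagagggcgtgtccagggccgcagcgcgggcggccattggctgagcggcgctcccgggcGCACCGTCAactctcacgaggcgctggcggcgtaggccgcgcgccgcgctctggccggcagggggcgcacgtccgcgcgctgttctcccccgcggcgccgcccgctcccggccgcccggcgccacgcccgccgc
Prdx1, chr4:116685349-116685598, plus strand: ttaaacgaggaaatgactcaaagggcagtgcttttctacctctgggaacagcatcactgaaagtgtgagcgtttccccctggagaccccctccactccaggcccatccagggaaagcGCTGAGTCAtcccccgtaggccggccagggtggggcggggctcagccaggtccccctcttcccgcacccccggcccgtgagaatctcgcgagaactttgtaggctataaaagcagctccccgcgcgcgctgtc
A match describes letters in the window and was not tested as a bound site.

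Of 16 listed partners and regulators of NRF2 other than KEAP1, 15 were tested, 7 rose and 4 fell, beside 33.0% higher and 32.7% lower of all genes tested. Sqstm1, the autophagy receptor p62 that competes with NRF2 for KEAP1, was at 5063 ± 104 CPM with TMAO and 895 ± 52.0 CPM in controls (log2 fold change 2.50, SE 0.09, edgeR adjusted p = 1.33e-08; mean ± SD, n = 3 each). Maff, a small MAF protein that pairs with NRF2, was at 54.2 ± 1.60 CPM with TMAO and 7.88 ± 0.833 CPM in controls. Bach1, a repressor that competes for the same elements, fell to 56.3 ± 6.68 CPM with TMAO, against 145 ± 17.6 CPM in controls (log2 fold change -1.37, SE 0.12, edgeR adjusted p = 4.52e-06). Nfe2, the relative of NRF2 in blood lineages, had a log2 fold change of 3.33. In the same libraries the megakaryocyte and platelet genes Pf4, Itga2b, Gp9 and Ppbp were higher with TMAO, as was Gata1. Epor did not pass the test. The globin gene Hbb-bs was lower, on 26 counts in all with TMAO and 76 in controls. The part of other cell types in the level of Nfe2 was not tested. Amer1, a scaffold protein that also binds KEAP1, fell to 2.99 ± 0.491 CPM with TMAO, against 11.6 ± 2.34 CPM in controls. Cul3, the scaffold of the ligase that KEAP1 serves, was at 134 CPM with TMAO and 119.7 CPM in controls. It did not pass the test (edgeR adjusted p = 0.12). Rbx1, another subunit of that ligase, rose (log2 fold change 0.69, edgeR adjusted p = 0.00185). Both were named after their values were seen.

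Other known NRF2 targets were divided. Of 34 listed, 31 were tested, 9 rose and 11 fell, shares near the 33.0% and 32.7% of all genes. Hmox1, which breaks down haem, was at 2276, 2395 and 2393 CPM with TMAO, against 518, 540.3 and 488 CPM in controls. Slc7a11, the cystine importer that feeds glutathione synthesis, was at 584, 546 and 524 CPM with TMAO, against 98.6, 92.0 and 108 CPM in controls. The groups did not overlap in either gene, with log2 fold changes of 2.19 (SE 0.09) and 2.47 (SE 0.10). Osgin1, an oxidative stress response gene, rose 2.65-fold. Among those that fell were Idh1, a cytosolic NADPH source, at 94.5 ± 5.87 CPM with TMAO and 221 ± 7.49 CPM in controls, and Cd36, a lipid scavenger receptor, at 251 ± 35.4 CPM with TMAO and 658 ± 56.5 CPM in controls. Named after their values were seen, the glutathione transferases Gstm1, Gsta3 and Mgst1 had log2 fold changes of -0.44, -0.66 and -0.58. Catalase (Cat) was at -0.65, and all of these were called. Of the other transferases tested in this list, Gstp1 rose (0.53) and Gsta4 did not pass the test (0.45). Among the further glutathione genes below, Gstm5, Gstz1, Gstt1 and Mgst2 were called higher and Mgst3 lower. Gsto1, Gstk1 and Gstt2 did not pass the test. Gstm1 and Gsta3 have close paralogs and their counts are uncertain.

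Of 31 further genes of glutathione metabolism, 28 were tested, 13 rose and 4 fell (all genes: 33.0% higher, 32.7% lower, 65.7% called in either direction), with a median log2 fold change of 0.30. Chac1, an enzyme that degrades glutathione, was at 20.7 ± 2.55 CPM with TMAO and 0.293 ± 0.123 CPM in controls, with a log2 fold change of 6.11 (SE 0.24). Slc3a2, the heavy chain that holds Slc7a11 in the membrane, was at 1207 ± 45.7 CPM with TMAO and 334 ± 26.7 CPM in controls. Gpx3, a secreted glutathione peroxidase, rose 3.81-fold and Glrx5, a mitochondrial glutaredoxin, 2.36-fold. Cth, which makes cysteine from cystathionine, rose with a log2 fold change of 4.26 on 10 control counts in all. Gss, which completes glutathione after the ligase, had a log2 fold change of 0.67 and Gpx1, the main cytosolic glutathione peroxidase, one of -0.50; both were called and were named after their values were seen.

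**Figure D5:**
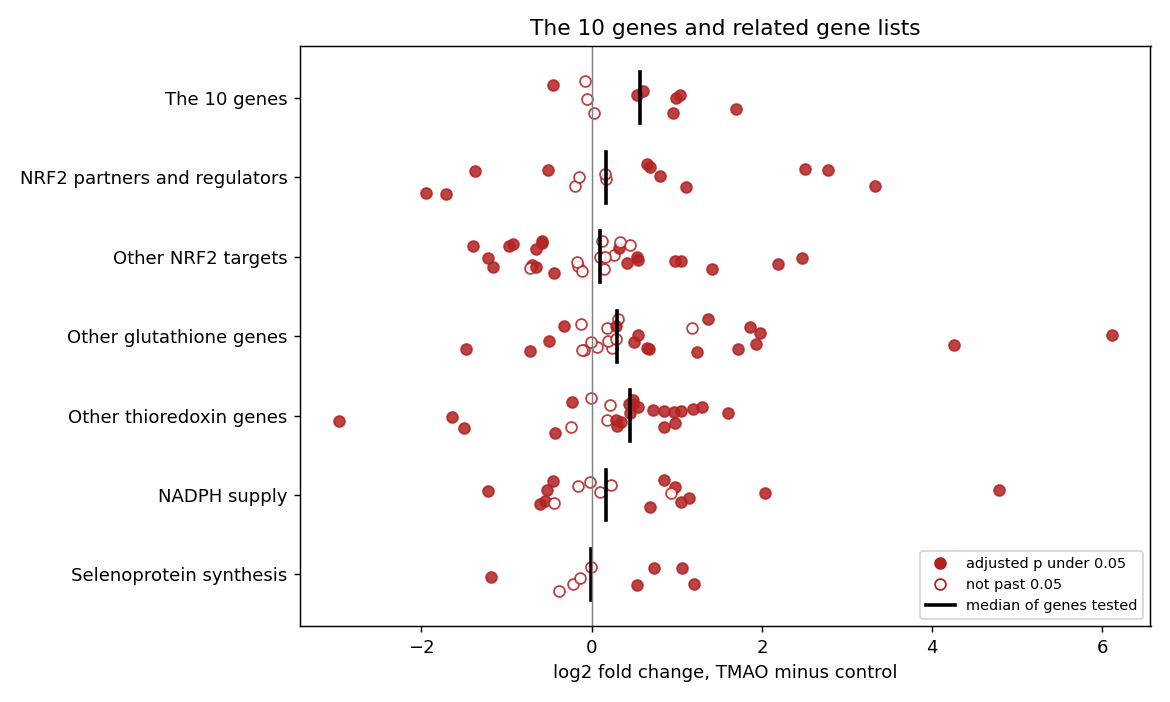
Log2 fold change, TMAO minus control, of the 10 genes and of the tested genes of 6 related lists; each circle is a gene, filled where the adjusted p was under 0.05, and the black bar is the median of the list. Medians run from -0.01 for selenoprotein synthesis to 0.57 for the 10 genes, and every list holds called genes on both sides of 0.

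In the wider thioredoxin and peroxiredoxin list, 17 of 26 genes rose and 5 fell, beside 33.0% and 32.7% of all genes, and the median log2 fold change was 0.44. The mitochondrial thioredoxin Txn2 was at 168 ± 10.9 CPM with TMAO and 93.1 ± 5.45 CPM in controls, and Prdx6, a peroxiredoxin that reduces phospholipid peroxides, at 340.1 ± 46.1 CPM with TMAO and 172 ± 16.1 CPM in controls. Txnl1, a thioredoxin-like protein, rose 2.06-fold. Of the sestrins, stress proteins that restrain mTORC1, Sesn2 rose 3.03-fold. Sesn1 fell to 14.4 ± 0.445 CPM with TMAO, against 113 ± 2.07 CPM in controls (log2 fold change -2.97, SE 0.09). Sesn3, named after its value was seen, also fell (log2 fold change -1.50). Of the other peroxiredoxins, named after their values were seen, Prdx5 and Prdx2 rose (log2 fold changes 0.85 and 0.45), Prdx3 fell (-0.23) and Prdx4 did not pass the test (0.18). The count of 17 was 11 with the length trend removed and 11 without control replicate 3; the 5 lower genes were 3 without control replicate 1 and 2 without control replicate 2, TMAO replicate 1 or TMAO replicate 3.

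The list on supply of NADPH, the electron donor of Gsr and Txnrd1, held 19 genes. Not every one encodes an enzyme that makes NADPH itself. Of the 19, 18 were tested, 7 rose and 5 fell. The 12 called of 18 are close to the 65.7% called over all genes. Pgd of the pentose phosphate pathway was at 1423 ± 63.1 CPM with TMAO and 720.4 ± 40.8 CPM in controls, whereas G6pdx, the first enzyme of that pathway, was at 199.9 CPM with TMAO and 223 CPM in controls and did not pass the test (edgeR adjusted p = 0.188; named after its value was seen). The malic enzyme Me1 rose 2.07-fold, and the mitochondrial folate enzymes Mthfd2 and Mthfd1l rose 4.12-fold and 2.20-fold. The 5 that fell were Idh1, to 0.428 of the control level, and H6pd, Mthfd1, Nadk and Nadk2, named after their values were seen. Pgd, Me1, Idh1 and G6pdx are also in the list of other NRF2 targets, so these lists are not separate. Genes for inserting selenocysteine, which Txnrd1 requires, included 4 of 9 that rose and 1 that fell, also no larger a share than the 65.7% of all genes. Sephs2, which makes the selenium donor, was at 132 ± 27.7 CPM with TMAO and 63.4 ± 6.76 CPM in controls. Trnau1ap rose 2.30-fold, Secisbp2, which binds the selenocysteine insertion element, 1.65-fold and Eefsec, the selenocysteine elongation factor, 1.45-fold. Secisbp2l, a relative of Secisbp2, fell to 0.441 of the control level. The count of lower genes was 2 in 9 of the 22 alternatives, among them limma-voom, no count filter and the fit without TMAO replicate 2.

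Genes with the profile most like that of Nfe2l2 over the 6 libraries were Ewsr1, Zfp330 and Safb2, whose centred log2 CPM differed from that of Nfe2l2 by a root mean square of 0.025, 0.029 and 0.030. For Keap1 they were Acot8, Wdr55 and Faap100, at 0.025, 0.031 and 0.035. With 2 groups of 3 libraries, these values reflect mostly the difference between the groups.

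The libraries held 37759007 to 41735109 counts, and cell type markers differed between the groups in the same libraries as the 10 genes. The counts of markers called stand beside 33.0% higher and 32.7% lower of all genes tested. Of 12 macrophage markers, 4 rose and 6 fell, and their summed level was 6846 to 7089 CPM with TMAO and 9058 to 9638 CPM in controls, with none at 0 in either group. Of 17 neutrophil and precursor markers, 14 rose and 2 fell, with sums of 4543 to 5796 CPM with TMAO and 490.2 to 537 CPM in controls. Mertk, an engulfment receptor of macrophages, had a log2 fold change of -3.31, and Mpo, the myeloperoxidase of neutrophil precursors, one of 11.80. Of 9 monocyte markers, 7 rose and 1 fell, with sums of 1021 to 1075 CPM with TMAO and 188 to 242 CPM in controls. Of 11 cell cycle genes 10 rose, and all 10 inflammatory genes rose, with sums of 4754 to 4901 CPM with TMAO and 462 to 493 CPM in controls. Erythroid and megakaryocyte markers summed to 353 to 537 CPM with TMAO and 44.4 to 66.1 CPM in controls (5 of 7 tested rose, 1 fell). Most of both sums was Pf4, a platelet chemokine named after its values were seen, at 301, 486 and 362 CPM with TMAO and 52.9, 60.3 and 39.4 CPM in controls. The globin gene Hbb-bs, named likewise, fell (log2 fold change -1.44, edgeR adjusted p = 0.0212), and Hba-a1 and Hbb-bt, too low to be tested, averaged 0.139 and 0.0183 CPM with TMAO and 0.345 and 0.147 CPM in controls. Dendritic cell markers summed to 32.2 to 36.8 CPM with TMAO and 58.8 to 60.8 CPM in controls (5 of 8 tested rose, 1 fell). The 1 that fell, Itgax, made up most of both sums, at 23.1 CPM with TMAO and 56.9 CPM in controls. The lower sum with TMAO thus reflects Itgax, while Flt3, Zbtb46, Xcr1, Ccr7 and Siglech rose. Cd209a and Siglech were at 0 in controls. B cell markers summed to 33.1 to 35.5 CPM with TMAO and 9.06 to 11.4 CPM in controls (6 of 7 tested rose; Pax5, Vpreb3 and Ebf1 at 0 in controls), and eosinophil and mast cell markers to 21.3 to 24.6 CPM with TMAO and 1.07 to 2.03 CPM in controls (4 of 4 tested rose; Ear1, Ear6 and Mcpt8 at 0 in controls). The part of these differences in the results for the 10 genes was not tested, and in bulk RNA fewer cells of a type and less RNA per cell cannot be told apart.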

How the data were processed

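The values used are the whole-number counts, 1 per Ensembl gene and library, that the authors deposited without normalization. They refer to genome build GRCm39 per the submitters' processing notes; aligner, counter, strand setting and annotation: not given in the sources used here. Per the labels' protocols, instruments of 2 makers were used, without saying for which library, so a platform batch and the treatment cannot be told apart. Symbols, lengths and GC content came from GENCODE M21 on the older build GRCm38, matched by ID (25386 of 25751 IDs); printed coordinates are those of the RefSeq promoter table.

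edgeR 4.0.16 with limma 3.58.1 in R 4.3.3 kept 14626 genes by filterByExpr (minimum count 10), scaled by TMM and tested TMAO against control without covariates by the quasi-likelihood F test, with Benjamini-Hochberg adjustment over all genes and a threshold of 0.05. The SE is the log2 fold change divided by the square root of F. CPM and errors (SD, n = 3) are from the same fit. Ratios used exact permutation. Named from each of 6 related lists were the 5 genes with the smallest p, from each of 9 marker lists up to 2, most of which are given only within the count and sum of their list. The members and lists were chosen with earlier results of these data known. Alternatives were DESeq2 1.42.0, limma-voom and other scalings, filters and trends. The steps were tested on simulated data. No 2 libraries of a group agreed within sampling noise (chi-square per degree of freedom at least 13.0).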

Additional observations from a re-analysis of the deposited data

How the results depend on the processing

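Under all 22 alternatives Nfe2l2, Gclc, Srxn1 and Txnrd1 stayed higher and called, and Gclm, Gsr and Nqo1 kept their direction and their call except in the test against a fold of 1.5. That test called 2630 genes higher and 2554 lower in all, and 4 of the 10 genes higher and 0 lower. The count of lower genes among the 10 was 2 with the length trend removed and 3 with the replicate block and the length trend removed together, through Txn1 (-0.51 there) and Prdx1 (-0.25); the cause was not tested. Directions of genes that were not called turned with the GC trend removed (Keap1 -0.20, Txn1 0.02, Prdx1 0.16), also with the replicate block (-0.20, 0.01, 0.15). Leaving out each library in turn gave -0.04 to 0.08 for Keap1, -0.24 to 0.05 for Txn1, -0.23 to 0.04 for Prdx1 and -0.04 to 0.01 for the log2 difference of the Prdx1 to Txn1 ratio, with 6 higher and 1 lower of the 10 each time. Prdx1 has no value with the 20 most abundant genes left out, since it is one of them.

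Same-numbered libraries did not deviate together (r = 0.0321, 0.133 and -0.0672), so the numbers are not taken as pairs. With the replicate number as a block, 4887 genes were higher and 4836 lower, and 6 and 1 of the 10; the paired sign-flip test of the ratios cannot go below 0.25. The ratios rest on 3 libraries a group, and the exact permutation test of them cannot go below 0.1.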
